A study of Mus musculus with 6 samples.

Results

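The genes of 7 chemokines were followed with and without red blood cells in mouse cells whose label is lymphatic endothelial (the lining of lymph vessels). They are the CXC chemokines Cxcl1, Cxcl2, Cxcl3, Cxcl5, Cxcl10 and Cxcl16 and the fractalkine gene Cx3cl1. They were taken by symbol from a list of 8 genes, of which 7 had a row among the 15528 gene symbols of the count table; Cxcl12 was not analysed here. The list was chosen by differences in their counts between these same control and treated libraries, which were already known. The differences between groups in these 7 genes are therefore given as a description, and the calls beside them support nothing further. The control group had 3 libraries and the group labelled with red blood cells treatment, called treated below, had 3, all labelled 24 h. The labels do not give the mouse strain or age, the source or dose of the red blood cells, or whether the replicates came from separate cultures, so any p-value below measures the spread among these libraries alone, and that spread may be technical.

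Chemokines are small secreted proteins that guide leukocytes by binding G protein-coupled receptors and are held on vessel walls by heparan sulfate chains. In the mouse, CXCL1, CXCL2, CXCL3 and CXCL5 attract neutrophils through the receptor CXCR2. CXCL10 is an interferon-inducible ligand of CXCR3 on activated T cells. CXCL16 and fractalkine differ from the others in being made as membrane proteins with a chemokine domain on a stalk, from which proteases of the ADAM family can release them; their receptors are CXCR6 and CX3CR1. Inflammatory signals through NF-kB induce many of these genes in endothelial cells.

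The libraries held between 17263359 and 18381419 counts. Control replicate 2 stood apart: the chi-square of its counts against the other controls was 28.1 and 26.7 for each gene on average, while those controls gave 1.99 with each other and the treated libraries 1.73 to 2.13. Results that move without it are given both ways. Markers of the labelled cell type were mixed. Of 12 lymphatic endothelial markers 8 are listed: Nrp2, Nr2f2, Stab1 and Flt4 had 272, 161, 30.9 and 3.62 CPM (counts scaled to the library total) in the controls, and Pdpn, Reln, Sox18 and Itga9 had 6, 4, 2 and 0 counts over the 3 control libraries. Stab1 was called higher with red blood cells (2.06-fold). Of 12 pan-endothelial markers 7 are listed: Eng and Pecam1 had 99.3 and 14.98 CPM in the controls, and Vwf, Cdh5, Esam, Tek and Kdr had 8, 7, 7, 3 and 0 counts. Of 13 fibroblast and mural markers 11 are listed. Col1a2, Pdgfra and Des had 464, 8.23 and 0.92 CPM in the controls, and the rest 0 to 32 counts over the 3 control libraries. Of 9 epithelial and mesothelial markers 7 are listed. Krt8, Msln and Krt18 had 448, 187 and 44.8 CPM in the controls, and the rest 0 to 35 counts. Krt8 and Col1a2 were thus above every endothelial marker given here. Prox1 and Lyve1 were not analysed here, so these levels do not establish the labelled identity. Without control replicate 2, Nr2f2 and Nrp2 were called beside Stab1, 2 of the 3 higher and 1 lower. In that fit Col1a2 and Pdgfra were also called, 1 higher and 1 lower, and Krt8 and Krt18 were called lower. Of all genes tested in it, 4.19% were called higher and 3.77% lower. The 12 erythroid markers, all listed, summed to 40.4 to 45.2 CPM in controls and 579.8 to 666 CPM with red blood cells. Bpgm made up most of the control sum (mean 39.0 CPM). It was at 42.1 CPM after treatment and was not called. Hba-a1, Hba-a2, Hbb-bs, Hbb-bt and Alas2, 5 of the 6 tested, were called higher, from 121-fold for Hbb-bt to 218-fold for Hbb-bs. Of these 5, all but Hbb-bs passed the filter on low counts through the treated libraries, so their place among the tested genes depended on their higher level there. Of 14 leukocyte markers 13 are listed. They summed to 42.0 to 48.4 CPM in controls and 49.0 to 53.9 CPM with red blood cells, of which Csf1r and Cd68 made up most, with 24.98 and 20.6 CPM in the controls and 24.7 and 21.2 CPM in the treated libraries. Of the 5 tested, 3 were called higher: Ptprc had 0 counts over the controls and 36 with red blood cells, Adgre1 0 and 48, and Lyz2 14 and 83. These 3 passed the filter on low counts through the treated libraries. Without control replicate 2, Itgam was called higher too, with 4 counts over the 3 controls and 28 with red blood cells. It passed the filter in that fit only through the treated libraries. In the controls 5 of the listed markers had 0 counts. The listed neutrophil markers, 7 of 12, summed to 0.50 to 0.60 CPM in controls and 0.71 to 1.5 CPM with red blood cells. S100a8 had 20 counts over the controls and 37 with red blood cells, Clec4d 4 and 16, Il1r2 0 and 5, and Csf3r 0 and 4. Ly6g, Mpo and Cxcr2 had 2, 2 and 1 counts over the controls and 0 with red blood cells. None of the 7 had enough counts to be tested. The sums over the listed platelet markers, 5 of 6, were 0.70 to 1.20 and 1.33 to 1.80 CPM. The part of RNA from added blood cells in the chemokine values was not tested, and in such bulk libraries fewer cells of a type and less RNA per cell cannot be told apart.

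The upstream sequences of 4 of these genes are shown because they hold matches to a motif of a known inducer of chemokine genes. RefSeq promoter windows (mouse GRCm38.p6, another build than the one named for the counts) were found for 6 of the 8 listed symbols, all but Cxcl5 and Cxcl16, and the 250 bases before the start site were searched. Capitals mark every match on either strand to the NF-kB consensus decamer, the binding motif of NF-kB dimers; where matches overlap they form 1 run of capitals.
Cxcl1, chr5:90890995-90891244, plus strand: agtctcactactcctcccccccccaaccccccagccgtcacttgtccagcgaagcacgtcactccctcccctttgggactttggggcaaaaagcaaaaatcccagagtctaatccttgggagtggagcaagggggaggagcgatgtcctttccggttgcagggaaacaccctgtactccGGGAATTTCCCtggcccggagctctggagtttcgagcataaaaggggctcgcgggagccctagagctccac
Cxcl2, chr5:90903649-90903898, plus strand: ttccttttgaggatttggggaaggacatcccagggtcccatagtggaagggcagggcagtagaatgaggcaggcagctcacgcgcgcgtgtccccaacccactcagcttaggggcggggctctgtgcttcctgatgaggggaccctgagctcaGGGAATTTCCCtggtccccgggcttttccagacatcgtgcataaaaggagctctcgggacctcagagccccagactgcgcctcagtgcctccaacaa
Cxcl3, chr5:90785851-90786100, plus strand: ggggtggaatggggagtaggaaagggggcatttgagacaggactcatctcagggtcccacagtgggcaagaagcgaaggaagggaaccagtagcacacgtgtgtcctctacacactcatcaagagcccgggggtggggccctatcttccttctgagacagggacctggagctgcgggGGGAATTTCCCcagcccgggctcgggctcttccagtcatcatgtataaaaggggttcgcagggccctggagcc
Cxcl10, chr5:92348890-92349139, minus strand: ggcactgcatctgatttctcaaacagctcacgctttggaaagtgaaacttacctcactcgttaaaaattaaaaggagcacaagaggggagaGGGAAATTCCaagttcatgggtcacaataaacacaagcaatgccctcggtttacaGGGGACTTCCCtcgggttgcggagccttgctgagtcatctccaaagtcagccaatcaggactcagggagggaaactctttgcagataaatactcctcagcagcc

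Cxcl1, Cxcl2 and Cxcl3 each held the string GGGAATTTCC, read from these windows as the consensus match that most of them share, overlapped by a second match on the other strand that begins 1 base later. The string lay 71 to 62 bases before the start site in Cxcl1, 73 to 64 bases before it in Cxcl3 and 97 to 88 bases before it in Cxcl2. Searched on both strands, GGGAATTTCC occurred in 28 of 32851 promoter windows of that length (0.0852%), and the broader NF-kB consensus decamer in 2382 (7.25%). The 28 genes with GGGAATTTCC include these 3. Since the string was taken from their windows, its presence there was fixed beforehand, and its share is no measure of enrichment. Cxcl1, Cxcl2 and Cxcl3 are also close relatives in 1 cluster, so their matches are not independent. Cxcl10 had consensus matches from 159 to 150 bases and, as an overlapping pair, from 104 to 94 bases before its start site. It also had a pair of GAAA strings 2 bases apart (letters typical of interferon-response elements), which 2.98% of windows hold, and the AP-1 string TGANTCA, which 6.75% hold. Cx3cl1 and Cxcl12 had no match to the consensus decamer in their windows. A match is a string of letters and not a measured binding site.

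With red blood cells, the neutrophil-attracting genes Cxcl1, Cxcl3 and Cxcl5, the T cell attractant Cxcl10 and fractalkine were all higher, from 1.91-fold for Cx3cl1 to 7.87-fold for Cxcl3. Cxcl2 and Cxcl16 stayed near the limit of detection. Enough counts to be tested were present for 5 of the 7 genes, and all 5 were called higher at an adjusted p under 0.05 over all genes in edgeR's quasi-likelihood test, beside 1.16% of the 11208 genes tested called higher, 0.303% called lower and 1.46% called in either direction. Without control replicate 2, 4.19% of tested genes were called higher and 3.77% lower, and Cxcl2 was called as well; it passed the filter in that fit only through the treated libraries. Cxcl2 was also called with no filter on low counts (1.04% of all listed genes called higher) and in DESeq2 (1.13%). Their control and treated libraries did not overlap, which held in this direction for 10.4% of all tested genes. Cxcl10 passed the filter on low counts through the treated libraries, since control replicate 3 lay below it, so its place among the tested genes depended on its higher level there.

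**Figure D1:**
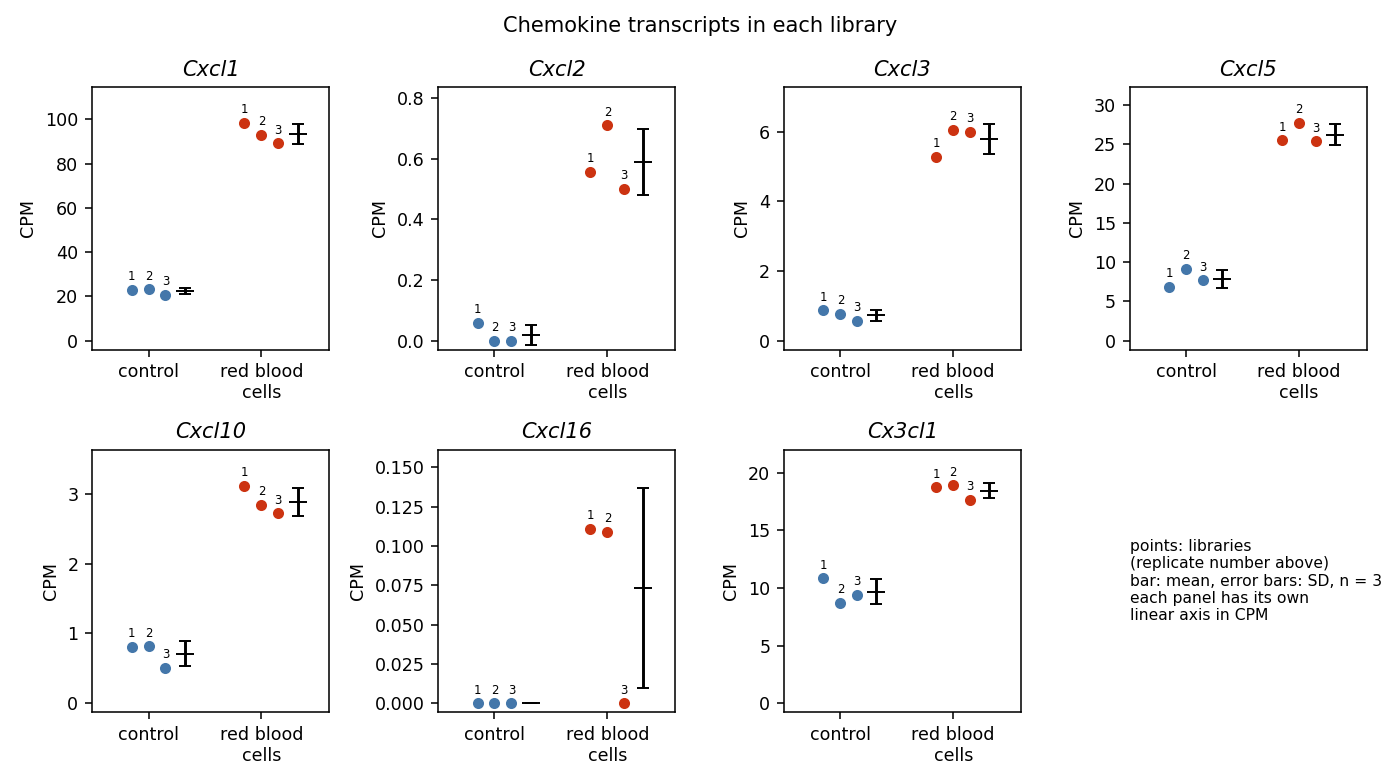
Level of each chemokine gene in CPM (vertical axes, linear and separate for each gene) in 3 control libraries and 3 libraries with red blood cells; points are libraries with their replicate number, bars the mean and SD (n = 3). In 6 of the 7 genes every treated library lies above every control, and Cxcl16 has counts in treated replicates 1 and 2 only.

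Cxcl1, the main neutrophil attractant of mouse stroma and endothelium, was the most abundant of the set. It had 398, 427 and 372 counts in the controls, in order of replicate, and 1771, 1703 and 1606 with red blood cells, or 23.1, 23.2 and 20.9 against 98.4, 92.9 and 89.2 CPM. The lowest treated library lay far above the highest control. The log2 fold change was 2.06 ± 0.07 (SE), the 31st largest of the tested genes. The coefficient of variation over the treated libraries was 4.96%, above the 2.43% that counting alone gives at this depth, and in the controls it was 5.93% against 5.01%.

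Cxcl5, made by epithelial and stromal cells and also a CXCR2 ligand, came next in abundance. Its CPM were 6.89, 9.14 and 7.68 in the controls and 25.5, 27.8 and 25.4 in the treated libraries. Control replicate 2 was the highest control, and its removal moved the log2 fold change from 1.73 ± 0.11 (SE) to 1.85 ± 0.09. The controls varied more (14.4%, against 8.41% from counting) than the treated libraries (5.15%, against 4.59%).

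Cxcl3, a close relative of Cxcl1 and Cxcl2, had the largest rise of the 5 tested genes. It had 15, 14 and 10 counts in controls and 95, 111 and 108 with red blood cells, or 0.87, 0.76 and 0.56 against 5.28, 6.06 and 6.0 CPM. The log2 fold change was 2.98 ± 0.18 (SE), the 22nd largest of the tested genes. In both groups the spread between libraries was no wider than counting alone gives (21.4% against 27.7% in the controls, 7.5% against 9.77% in the treated libraries).

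Cxcl2, known as MIP-2 and produced abundantly by activated myeloid cells, was nearly absent. It had 1, 0 and 0 counts in controls and 10, 13 and 9 with red blood cells. The ratio of the summed counts, 32 against 1, was 31.5 after scaling to library totals (exact Clopper-Pearson 95% interval 5.26 to 1283, counting error only). These few counts carry limits of their own. Transcripts of Cxcl2 and Cxcl3 in GENCODE M21 share an identical stretch of 157 bases, so reads could be split between the 2 genes, while the longest stretch that either shares with Cxcl1 is 23 bases. The leukocyte genes Ptprc and Adgre1 likewise went from 0 counts to 36 and 48, and the neutrophil marker S100a8 had 20 and 37 counts; their part in the Cxcl2 counts was not tested.

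Cxcl10 had 14, 15 and 9 counts in controls and 56, 52 and 49 with red blood cells. In CPM these were 0.81, 0.82 and 0.50 against 3.11, 2.84 and 2.72. The groups were well apart, and the log2 fold change was 2.01 ± 0.21 (SE), close to that of Cxcl1 but with the widest error of the 5. Art3, annotated on the opposite strand across Cxcl10, was not analysed here, and the strand setting of the counting is not given in the sources used here. The other CXCR3 ligands Cxcl9 and Cxcl11 were not analysed here.

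Cx3cl1 was already well detected in the controls and rose least. Its CPM were 10.8, 8.70 and 9.42 in the controls and 18.7, 18.9 and 17.7 in the treated libraries. The treated libraries differed from each other by less than counting alone gives (3.61% against 5.47%). The log2 fold change was 0.94 ± 0.09 (SE), the 77th largest of the tested genes, and was 0.86 without control replicate 2.

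Cxcl16, the other membrane-bound member, had 0 counts in each control and 2, 2 and 0 counts in the treated libraries. The groups overlap at 0. A count of 0 allows up to 3 counts over the control group, beside the treated sum of 4. The gene Zmynd15 lies over Cxcl16 on the opposite strand and had 5 counts in controls and 11 with red blood cells. A change in Cxcl16 was thus not detectable at this depth.

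**Figure D2:**
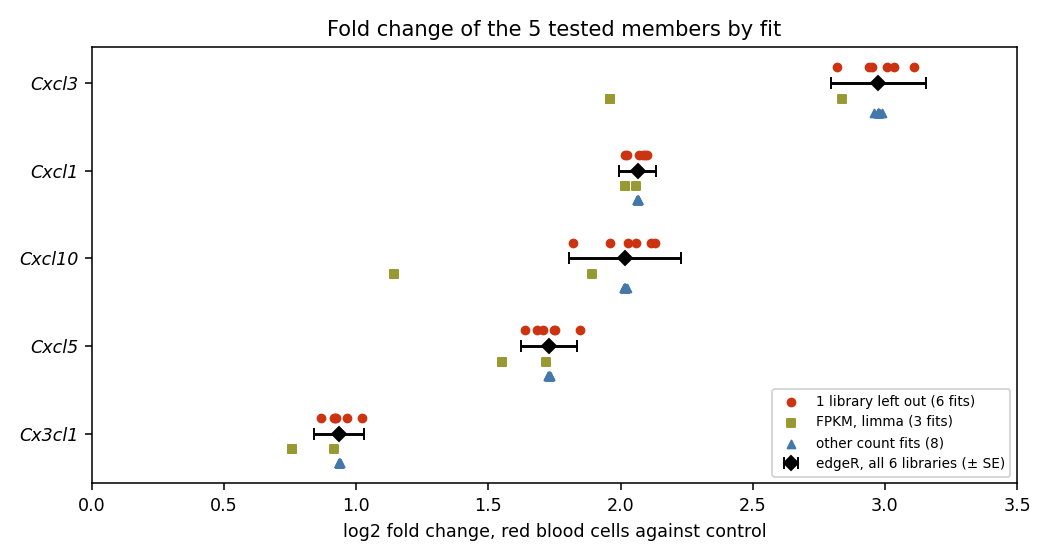
Log2 fold change with red blood cells against control (horizontal axis) for the 5 tested genes; the diamond is the edgeR fit with its SE and the other marks are fits with 1 library left out, on FPKM, or with another scaling, filter, tool or block. With 1 library left out Cxcl1 stays between 2.02 and 2.10, while the FPKM fits with a pseudocount of 1 give 1.96 for Cxcl3 and 1.14 for Cxcl10.

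Levels of different genes can be compared per length of transcript, for which the deposited FPKM (counts scaled to gene length and library total) were used. In the controls Cxcl1 led with 23.4 ± 1.39 FPKM (SD, n = 3). Cxcl5 followed with 4.77 ± 0.69 and Cx3cl1 with 3.07 ± 0.34 FPKM. Cxcl3 at 0.72 ± 0.15 and Cxcl10 at 0.65 ± 0.16 FPKM did not differ beyond their spread, and Cxcl2 was at 0.05 FPKM in control replicate 1 and listed at 0 in the others. With red blood cells Cxcl1 reached 97.9 ± 4.85 and Cxcl5 15.8 ± 0.81 FPKM. Here Cxcl3, at 5.67 ± 0.43 FPKM, had drawn level with Cx3cl1, at 5.86 ± 0.21, and these neighbours did not differ beyond their spread. Cxcl10 came after them at 2.62 ± 0.18 FPKM and Cxcl2 at 0.54 ± 0.10.

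The 7 genes together summed to 33.4, 34.1 and 30.5 FPKM in controls and 133, 129 and 123 FPKM with red blood cells. Cxcl1 made up 71.3% to 72.3% of this sum in the controls and 75.2% to 77.5% in the treated libraries. Cxcl3 went from 1.81% to 2.56% of the sum in the controls to 3.90% to 4.78% with red blood cells. The share of Cx3cl1 was 8.12% to 10.3% in the controls and 4.48% to 4.64% in the treated libraries, although its own level was higher there. The length-scaled ratio of Cxcl3 to Cxcl10 was 1.01 to 1.20 in the controls and 1.83 to 2.38 in the treated libraries. The ratio of Cxcl1 to Cxcl5 was 4.41 to 5.80 in the controls and 5.80 to 6.69 in the treated libraries, ranges that meet at their ends.

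**Figure D3:**
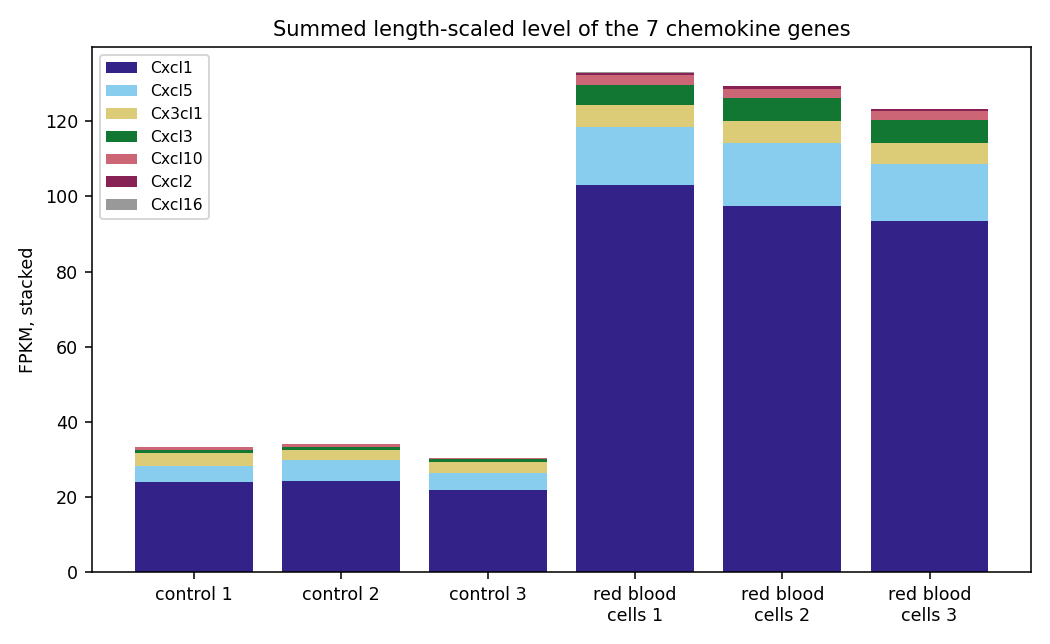
FPKM of the 7 chemokine genes stacked for each library (vertical axis, linear from 0; horizontal axis, the 6 libraries). The stacks sum to 30.5 to 34.1 FPKM in the controls and 123 to 133 FPKM with red blood cells, and Cxcl1 is the largest part of each.

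Cxcl5, Cxcl3, Cxcl1 and Cxcl2 lie in this order in a cluster on mouse chromosome 5, with the platelet chemokine genes Ppbp and Pf4 between Cxcl5 and Cxcl3. Genes next to the cluster were not used in choosing the members. Ppbp had 5, 16 and 8 counts in controls and 22, 22 and 18 with red blood cells; its log2 fold change of 1.07 ± 0.35 (SE) was not called (edgeR adjusted p = 0.32), but without control replicate 2, the highest control, it was 1.61 and called (adjusted p = 0.0050). Ppbp passed the filter on low counts through the treated libraries. Pf4 had 0 counts in controls and 1 with red blood cells. On the far side of Cxcl2, Mthfd2l, an enzyme of mitochondrial folate metabolism, had 846 and 890 counts summed over each group (log2 fold change 0.05 ± 0.10 SE). The growth factor genes Ereg and Areg had log2 fold changes of -0.13 ± 0.06 and -0.19 ± 0.20, and on the side of Cxcl5 the albumin-family gene Afp had -0.07 ± 0.24. None of these 4 was called with all libraries or with any 1 left out, although the sign for Mthfd2l and Afp depended on the library left out. Beyond the cluster, Sdad1 and Nup54 beside Cxcl10 had 0.08 ± 0.05 and 0.01 ± 0.06, and Arl2bp and Ciapin1 near Cx3cl1 had -0.11 ± 0.06 and 0.05 ± 0.07. The sign for Nup54 also depended on the library left out. Over all 24 listed neighbours of the 3 regions, 17 were tested and 0 were called in edgeR, with 3 at an unadjusted p under 0.05. In 7 of the 24 every treated library lay on one side of every control, higher in 5 and lower in 2. Over all 11208 tested genes this held upward for 1171 (10.4%) and downward for 1030. Among the 7 neighbours, the chemokine gene Ccl17 beside Cx3cl1 had 5 counts over the controls and 16 over the treated libraries. Rassf6 beside Cxcl5 had 4 and 12. Ccl17 and Rassf6 had too few counts to be tested, so the share over tested genes does not cover genes like these. Uso1 was apart upward (log2 fold change 0.14 ± 0.06 SE), as were Ppbp and Sdad1, and Stbd1 was apart downward (66 and 40 counts, -0.74 ± 0.30), as was Ereg. The neighbours given singly were named after their values were seen.

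**Figure D4:**
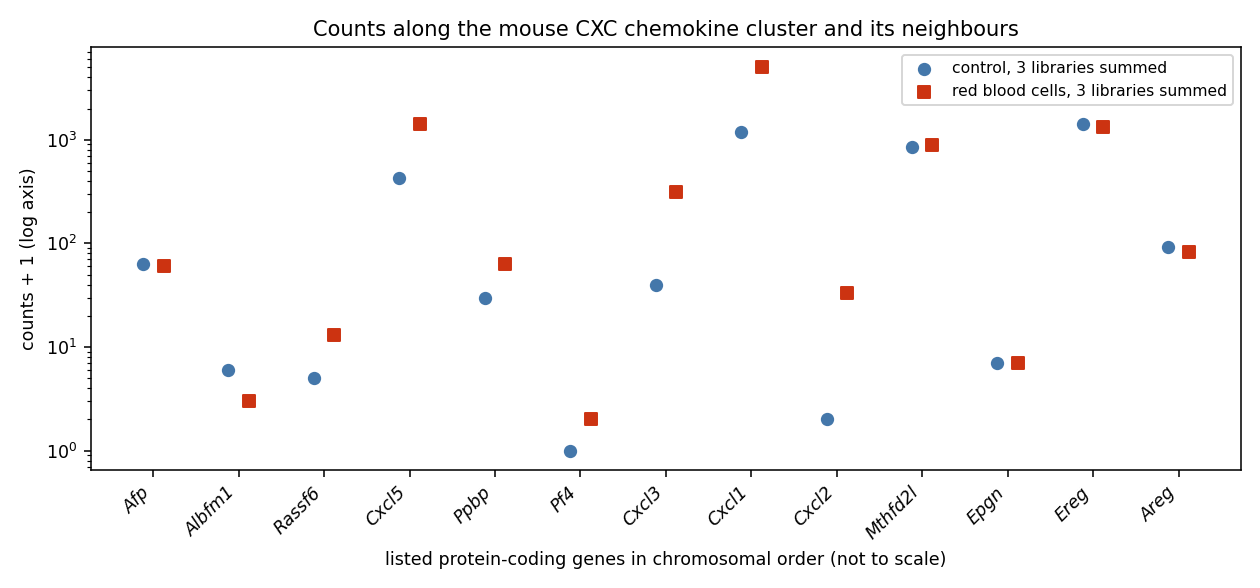
Counts plus 1 summed over the 3 libraries of each group (vertical axis, log) for the listed genes of the chromosome 5 chemokine cluster and its neighbours in chromosomal order (horizontal axis, not to scale). Cxcl5, Cxcl3, Cxcl1 and Cxcl2 have more counts with red blood cells. So do Ppbp (29 in the controls and 62), Rassf6 (4 and 12) and Pf4 (0 and 1). The sums of Mthfd2l, Ereg, Areg and Afp were 846, 1411, 91 and 62 in the controls and 890, 1312, 81 and 60 with red blood cells.

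Outside the 8 listed symbols, 7 tested genes had GGGAATTTCC in the 250 bases before a start site, on either strand. The inhibitor gene Nfkbia was called higher, with a log2 fold change of 1.03 ± 0.07 (SE), and the other 6 were not called: Trio, Map3k7, Tufm, Csad, Cep112 and Zfp84 had values from -0.03 to 0.30. Over the 946 tested genes with the broader consensus, the listed symbols left out, 14 were called higher (1.48%) and 5 lower. Their median log2 fold change was 0.0027. Of 261 tested genes with the GAAA pair, the listed symbols left out, 6 were called higher (2.3%) and 1 lower. Beside these, 9024 tested genes have a window, the listed symbols among them, and 92 were called higher (1.02%) and 27 lower.

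The genes whose centred log2 CPM over the 6 libraries lay nearest to each member, by Euclidean distance, were all called genes in edgeR. Nearest to Cxcl1 were the monocyte attractant Ccl7 (distance 0.29), the TNF receptor adaptor Traf1 (0.40) and Cxcl10 (0.41). Nearest to Cxcl3 were Ccl2 (0.40), Enpp2, which encodes autotaxin (0.57), and Ccl7 (0.76). Cxcl5 was followed by Mtmr7 (0.52), Cxcl1 (0.52) and Prl2c3 (0.53), and Cxcl10 by Cxcl1 (0.41), Ccl7 (0.57) and Cxcl5 (0.59). The nearest genes to Cx3cl1 were Slc37a1 (0.17), the retinoic acid-degrading enzyme Cyp26b1 (0.23) and Afap1l2 (0.23). All 6 libraries fall into 2 groups, so the distance is set mainly by the size of the difference between groups.

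Genes around the chemokines were followed in lists, whose counts of calls stand beside 1.16% called higher and 0.303% called lower over all tested genes, with a median log2 fold change of -0.0027. Without control replicate 2 these shares were 4.19% and 3.77%. Most receptor genes for CXC chemokines and fractalkine, including some for ligands not followed here, had few counts in the same libraries. Of 9 receptor genes 6 are listed and 2 were tested, and neither was called in edgeR, DESeq2 or limma voom, nor had an unadjusted p under 0.05 in edgeR. Cxcr2, the receptor of the neutrophil attractants, had 1 count over the controls and 0 over the treated libraries, and Cx3cr1 had 3 and 2. Cxcr4 had 0 and 3 counts, Cxcr5 4 and 13, and Cxcr6, the receptor of CXCL16, 34 and 31. The exception was the scavenging receptor Ackr3, which takes up CXCL12, with 164 ± 7.20 CPM in controls and 179 ± 11.6 CPM with red blood cells. Its log2 fold change of 0.13 ± 0.07 (SE) was not called with 6 libraries, and was called at the same size, 0.13, without control replicate 2 (edgeR adjusted p = 0.025). Other ligands of the family were at the detection limit: Cxcl17 had 1 count in each group and Xcl1 had 0 and 1.

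Enzymes that release or trim these chemokines, and proteins that regulate such enzymes, were followed as well. Of 12 such genes 9 were tested, 1 was called higher and 0 lower, with a median log2 fold change of 0.00. The sheddases Adam10 and Adam9 had 485 and 189 CPM in the controls and 474 and 190 CPM with red blood cells, and the membrane metalloproteinase Mmp14 had 258 and 249 CPM. Rhbdf2, which encodes the iRhom2 protein that brings the sheddase ADAM17 to the cell surface, was the gene called, with 22.3 and 29.7 CPM (log2 fold change 0.41 ± 0.08 SE, edgeR adjusted p = 0.035). That call was lost without each library other than control replicate 2 (0.38 to 0.47 over the 6 fits). Ctss, a lysosomal cathepsin that can cleave fractalkine, was too low to be tested, with 1 and 31 counts; it was chosen after its values were seen. Without control replicate 2, Rhbdf2 and Ctss were called higher and Adam10 lower (log2 fold change -0.09). Ctss passed the filter on low counts in that fit only through the treated libraries.

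Carriers and enzymes of the heparan sulfate chains hold chemokines on cell surfaces. Of 21 genes 16 were tested and 0 were called in edgeR, DESeq2 or limma voom, and 1 had an unadjusted p under 0.05 in edgeR; the median log2 fold change was 0.03. Perlecan, Hspg2, had 1114 and 1554 CPM, the syndecan Sdc3 846 and 885 CPM, and Sdc1 346 and 352 CPM. The log2 fold change of Hspg2, 0.48 ± 0.24 (SE), was 0.20 without control replicate 2, where it was called (edgeR adjusted p = 4.3e-07) together with Sdc4 and Hs6st1, 2 of the 3 higher and 1 lower.

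Among 17 genes that connect cytokine receptors and NF-kB to these promoters, all were tested, 1 was called higher and 0 lower, and the median log2 fold change was -0.02. Nfkbia, the NF-kB inhibitor that NF-kB itself induces, rose from 56.6 ± 3.78 to 115 ± 2.70 CPM (SD, n = 3) and was called with each library left out. The subunit gene Nfkb1 had 193 and 238 CPM; its log2 fold change of 0.30 ± 0.06 (SE) missed the threshold with 6 libraries (edgeR adjusted p = 0.051) and passed it without control replicate 2, in DESeq2, in limma voom and with no filter on low counts. Tnfrsf1a had 89.4 and 82.2 CPM and Ikbkg 80.3 and 78.2 CPM. Without control replicate 2, 4 genes of the list were called higher and 1 lower, beside 4.19% and 3.77% of all tested genes.

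RNA-binding proteins, several of them acting at AU-rich elements, control how long chemokine transcripts last. Of 9 such genes, all tested, 1 was called higher and 0 lower, beside 1.16% and 0.303% of all tested genes (median log2 fold change 0.08). Zfp36l1, a decay factor, rose from 68.8 to 92.2 CPM (0.42 ± 0.06 SE, edgeR adjusted p = 0.0089), a call lost without treated replicate 1 (0.41) or treated replicate 3 (0.39). Hnrnpd, Elavl1 and Khsrp, the most abundant uncalled genes of the list, had log2 fold changes of -0.02, -0.0076 and 0.12; the signs of Hnrnpd and Elavl1 depended on the library left out. Without control replicate 2 the list had 1 call higher and 1 lower.

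On the interferon path to Cxcl10, 15 genes were considered, 13 were tested, 1 was called higher and 0 lower (median log2 fold change 0.05). Irf1, a transcription factor that both interferon and NF-kB induce, rose from 26.7 to 33.8 CPM (0.34 ± 0.07 SE, edgeR adjusted p = 0.042). The call was lost without each library other than control replicate 2 (0.30 to 0.37 over the 6 fits). Without control replicate 2, 2 genes of the list were called higher. The interferon-induced gene Irf7, with 42 and 40 counts summed over each group, was not called; it was picked with its values in view. The kinase Jak1 had 209 and 226 CPM, Jak2 38.9 and 39.7 CPM and the receptor chain Ifnar1 58.0 and 62.8 CPM; Ifnb1 and Ifng were not analysed here. Of the 9 genes tied to CXCL12 and hypoxia 7 were tested and 0 were called in edgeR, DESeq2 or limma voom (1 at an unadjusted p under 0.05 in edgeR), with Hif1a at 188 and 189 CPM and Mif at 462 and 401 CPM; Mif was called lower without control replicate 2 (log2 fold change -0.11).

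**Figure D5:**
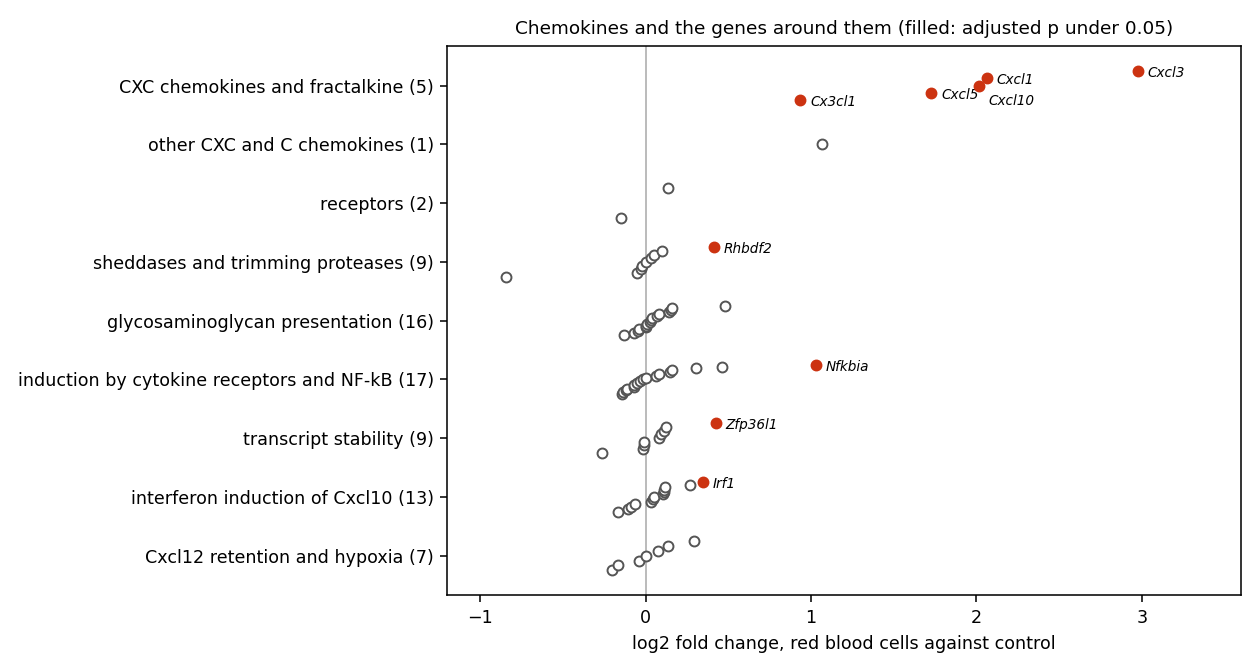
Log2 fold change with red blood cells against control (horizontal axis) for the tested genes of the chemokine set and of 8 lists around it (rows, number tested in brackets; the cell type marker lists are not plotted); filled points were called at an adjusted p under 0.05. The 5 chemokines lie between 0.94 and 2.98, and of the plotted genes outside them Rhbdf2, Nfkbia, Zfp36l1 and Irf1 are filled.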

How the data were processed

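RNA of 6 libraries of mouse cells labelled lymphatic endothelial cells, 3 control and 3 with red blood cells, was sequenced after poly(A) selection with a stranded kit, per the labels' protocols. The authors deposited raw read counts per gene and, in a second table, FPKM per gene, 1 column per library; the reads were placed on GRCm 39, per the submitters' processing notes. For the aligner, counter, strand setting and annotation, the entry is: not given in the sources used here. The tables list 15528 gene symbols.

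From the counts, genes passing filterByExpr (minimum count 10, minimum total 15) were tested with edgeR 4.0.16 (TMM scaling, quasi-likelihood test, R 4.3.3), with Benjamini-Hochberg adjustment over all 11208 genes and a threshold of 0.05. SE is the log2 fold change divided by the square root of F. CPM are counts scaled to the total of the listed counts, and FPKM were used only to compare levels between genes and as an alternative. The depth, 17263359 to 18381419 counts a library, gives a counting coefficient of variation of 13.8% for Cxcl10 at 2.89 CPM and 2.43% for Cxcl1 at 93.5 CPM. Intervals and floors (3 counts) cover counting error only. Alternatives were other scaling, filters, DESeq2 1.42.0, limma 3.58.1 (voom, or log2 of FPKM plus 1 or 0.1), a replicate block and leaving out each library. The chemokine genes and all gene lists were chosen with earlier results of these data known. From each list, called genes were named. From the lists around the chemokines, the 3 uncalled genes of highest mean CPM were named too, with every listed chemokine and receptor. The 3 nearest genes by distance (prior count 2, mean of at least 1 CPM) were also named. Genes outside this rule, such as uncalled cell type markers and the neighbours of the chemokine genes, were chosen after their values were seen. Promoter windows come from RefSeq (GRCm38.p6); overlaps and shared stretches come from GENCODE M21, which is on another build than the counts.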

Additional observations from a re-analysis of the deposited data

How the results depend on the processing

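Cxcl1, Cxcl3, Cxcl5, Cxcl10 and Cx3cl1 were called higher under all 17 alternatives, and Cxcl2 joined them, making 6, in DESeq2, with no filter, on FPKM with no filter, and without control replicate 1, control replicate 2 or treated replicate 3. Cxcl2 had 1 count over the controls, so in the filtered fits it was tested through the treated libraries alone. With 1 library left out, the number of genes called moved from 164 to between 62 and 899; 899 was without control replicate 2 (473 higher and 426 lower), and 72, 62 and 79 without treated replicates 1, 2 and 3, so the number of calls rests on single libraries; the cause was not tested. DESeq2 called 233 genes. The same-numbered libraries did not deviate together (correlations -0.014, 0.045 and 0.063, and not every library correlated best with its own number), and with the replicate number as a block 126 genes were called, with the same 5 chemokine genes among them. Rhbdf2 and Irf1 were not called with that block (edgeR adjusted p = 0.069 and 0.089). With 1 library left out, 12 uncalled genes changed sign, with log2 fold changes of -0.354 to 0.128 for Cxcr6, -0.0935 to 0.00365 for Adam10, -0.0348 to 0.0234 for Adam9, -0.0283 to 0.133 for Sdc3, -0.101 to 0.00699 for Ikbkg, -0.0619 to 0.0371 for Hnrnpd, -0.0355 to 0.0365 for Elavl1, -0.00574 to 0.0749 for Jak2, -0.0314 to 0.0338 for Hif1a, -0.0527 to 0.142 for Mthfd2l, -0.232 to 0.0673 for Afp and -0.0153 to 0.0607 for Nup54. On FPKM with a pseudocount of 1 the changes of low genes are smaller by construction. Depth limits Cxcl2 and Cxcl16, which had at most 13 and 2 counts in a library.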
